A study of Mus musculus with 12 samples.

Results

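Forkhead genes other than the Foxo genes were followed through mouse spermatogonia and whole testes. Their members were the array probes whose gene name begins with Fox, a letter from a to s and a digit, with names beginning Foxo left out. The rule took 52 probes of 41 genes, out of 55681 probes and 36315 genes on the array. A further 8 probes that the array's annotation describes as forkhead, but names only by a transcript identifier, fell outside the rule.

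Forkhead proteins bind DNA through a winged-helix domain and act mainly as transcription factors. Some, such as the Foxa proteins, can open closed chromatin before other factors arrive. Others, such as the Foxp and Foxk proteins, recruit repressors. Single members are known for setting the identity of an organ or cell type, and in the testis the family is best known through Foxo1, which lies outside the rule.

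The study compared gene expression between states of spermatogonia, the cells that maintain and start sperm production in the adult testis, on 1-colour Agilent arrays. There were 4 groups with 3 arrays each, all from C57BL/6 mice aged 10-11 weeks. GFRα1+ cells were the GFP-positive fraction of GFRα1-EGFP knock-in mice, in which the reporter sits in the gene of a GDNF receptor, and each sample came from 1 mouse. NGN3+ and KIT+ cells came from Ngn3-EGFP transgenic mice as the fractions with GFP and without or with the surface receptor KIT. Each NGN3+ sample was pooled from 2 mice and each KIT+ sample came from 1 mouse. Whole testes came from wild-type littermates of the knock-in mice. In this reporter line GFP outlasts expression of the gene itself, so the fractions without and with KIT were separated by the antibody and not by GFP. Each sorted sample held 10000 to 20000 cells, and a probe averages over all of them. In such bulk samples fewer cells of a type and less RNA per cell cannot be told apart.

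Signals are given on a log2 scale on which 0 is the 75th percentile of the array, so that 1 unit is a 2-fold difference. A difference is the mean of 3 arrays minus the mean of 3 others, given with its standard error (SE), and a gene passed the test at an adjusted p under 0.05 in limma with Benjamini-Hochberg adjustment over all genes tested. To be tested, a gene needed a probe well above background on the 3 arrays of either group. The level of 1 gene's probe cannot be set against that of another gene's, since probes differ in brightness. Arrays of 1 group correlated at 0.988 to 0.997 over 17651 genes, between 51.1 and 65.8% of spots were well above background, and no spot was saturated. The genes that name the fractions followed the labels. Gfra1 was between 1.48 and 1.79 in GFRα1+ cells and at most -0.97 elsewhere, Neurog3 was highest in NGN3+ cells (4.78 to 5.63), and Kit was highest in KIT+ cells (4.46 to 4.67). The arrays lay on 3 slides. All NGN3+ and KIT+ arrays were on slide 2, read on a different scanner from the others, and so was GFRα1+ replicate 3. Many differences against GFRα1+ cells are therefore also given with slide as a block. For NGN3+ and KIT+ cells this ratio is the one within slide 2, where it rests on 1 GFRα1+ array. For whole testes it is the one within slide 1, where it rests on 1 whole-testes array.

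Of the 41 members, 24 had a probe well above background on each of the 3 GFRα1+ arrays (58.5%, against 54.1% of all genes). The number was 27 in NGN3+ cells (65.9% against 65.1%), 22 in KIT+ cells (53.7% against 61.8%) and 19 in whole testes (46.3% against 61.8%). In all, 29 members were detected in this way in at least 1 group, and 8 were not well above background on any array. Members better known from vessels, liver, lung, gut and lens are described first, then signal partners, mostly widely expressed members, and those of mitosis and cilia.

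Between GFRα1+ and NGN3+ cells 28 members could be tested. In NGN3+ cells 4 were higher and 11 were lower, or 53.6% of those tested, while 56.3% of all 23791 genes tested passed (20.1% higher and 36.1% lower). The members' median difference was -0.04, against -0.19 over all genes. Under a scaling on the brighter probes the difference of the typical gene moved up by 0.17, the share of all passing genes that were higher went from 35.8 to 49.2%, and the members went to 7 higher and 11 lower. With slide as a block 3 members were higher and 7 lower, and the share of all genes that passed also went down, to 38.8%. Without GFRα1+ replicate 1 the 4 higher members became 2.

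Between NGN3+ and KIT+ cells 6 members were higher and 12 lower in KIT+ cells, of 27 tested. That was 66.7%, against 34.4% of all 24107 genes tested (17.5% higher and 16.9% lower), and the medians were -0.15 and 0.05. Between the ends, GFRα1+ and KIT+, 6 members were higher and 14 lower in KIT+ cells, of 26 tested, or 76.9% against 65.7% of 22989 genes (26.5% higher and 39.2% lower), with medians of -0.65 and -0.15. The last comparison shares all its arrays with the other two and is not independent of them. Each member's values at the 2 steps are set side by side below. Across the 3 comparisons 24 of the 28 tested members passed at least once. The share of all genes that passed at least once is not given. In the comparisons taken singly 53.6, 66.7 and 76.9% of the members tested passed, against 56.3, 34.4 and 65.7% of all genes tested. Without the share of all genes that passed at least once, the count of 24 cannot be read as a trait of the members.

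**Figure D1:**
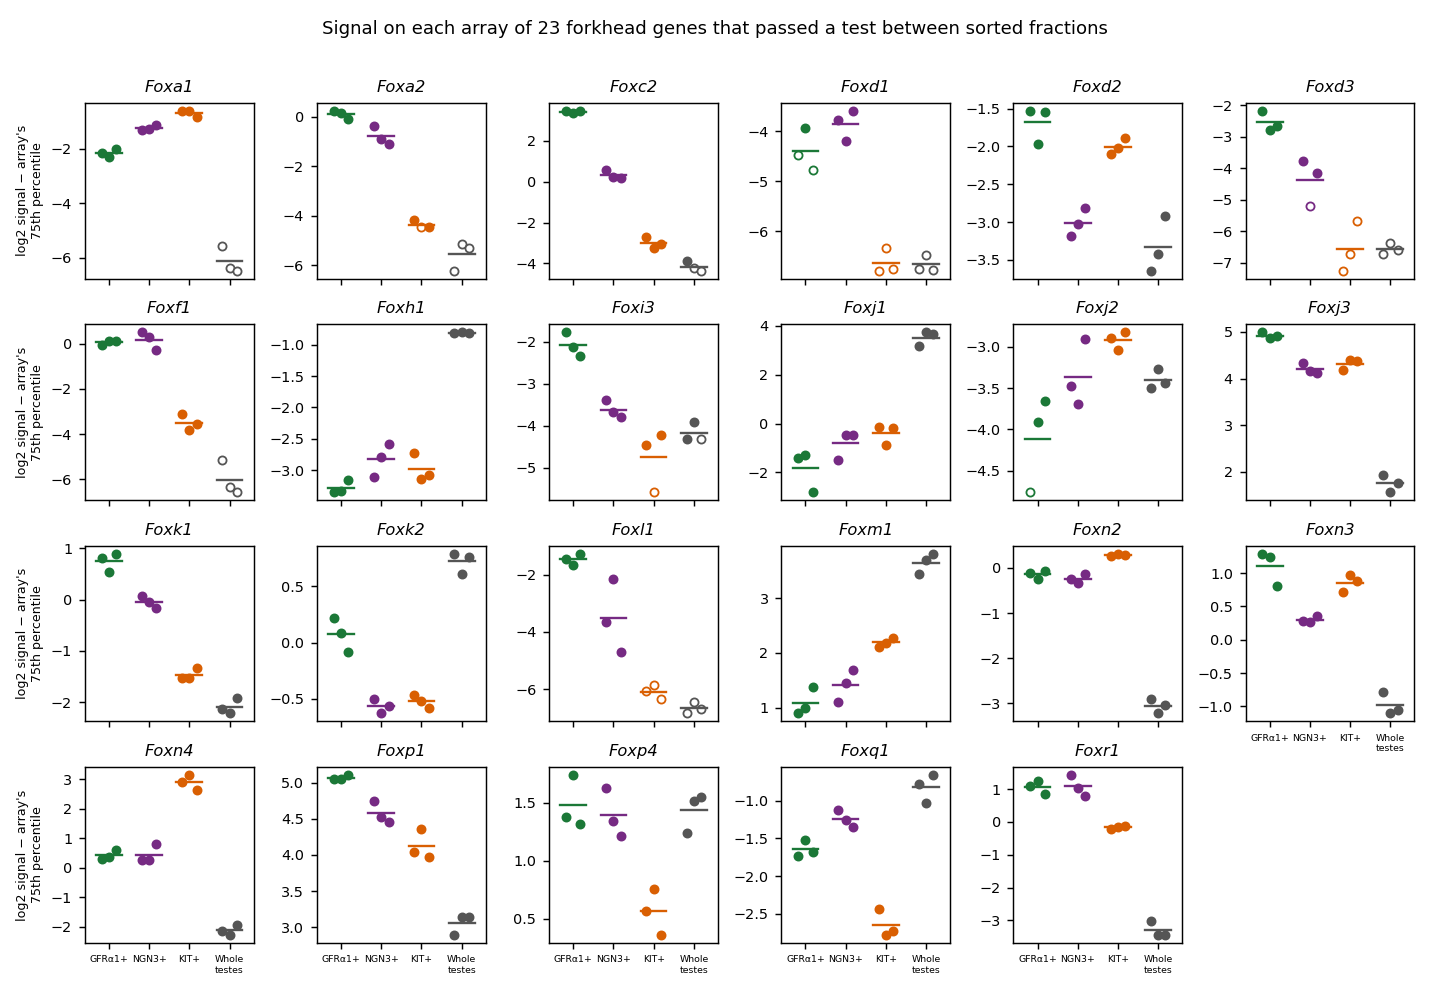
Signal of 23 of the 24 forkhead genes that passed a test between sorted fractions, on the log2 scale relative to each array's 75th percentile. Each point is 1 array, the line is the mean of 3, and open points were not well above background. Foxc2 lies between 3.35 and 3.48 in GFRα1+ cells and between -3.25 and -2.69 in KIT+ cells.

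**Figure D2:**
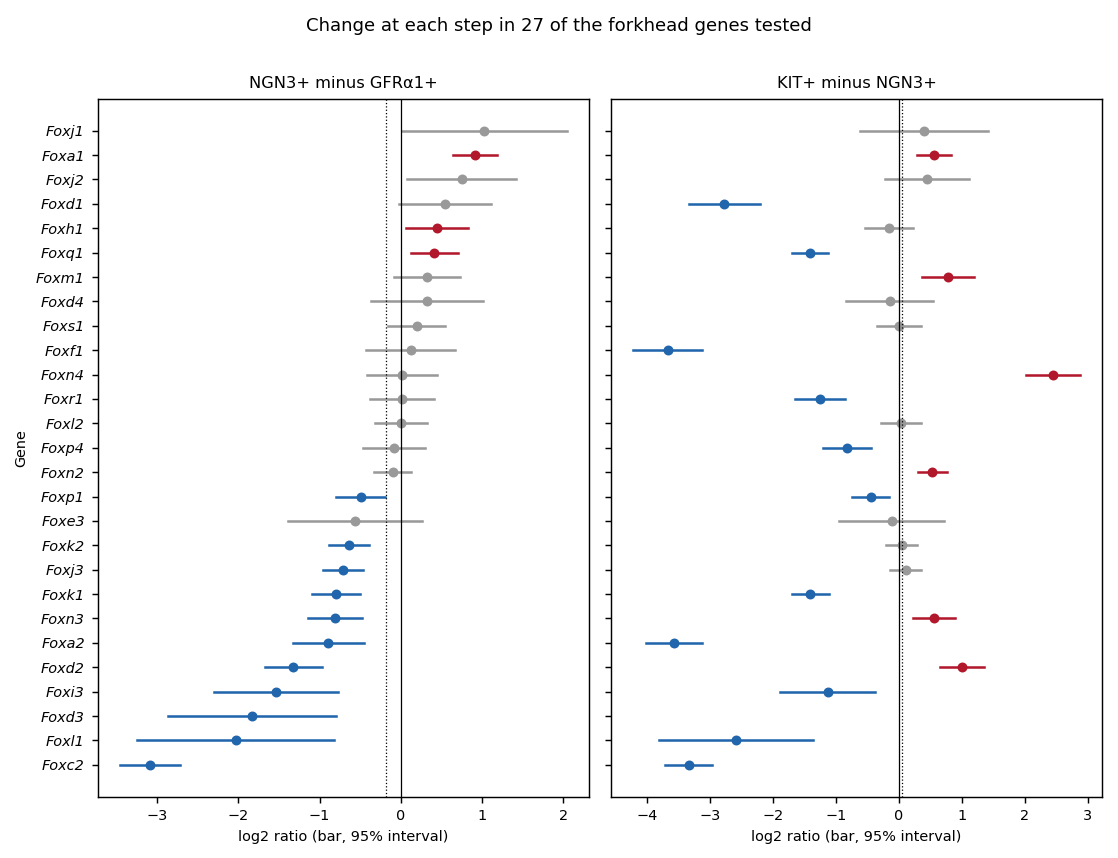
Log2 ratio at each step for 27 of the 28 forkhead genes tested between NGN3+ and GFRα1+ cells, ordered by that ratio. Bars are 95% intervals, red and blue mark genes that passed as higher or lower, grey marks the others, and the dotted line is the median of all genes (-0.19 and 0.05).

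Foxc2, a factor of blood and lymph vessel formation that has also been described in undifferentiated spermatogonia, had the largest difference of the members at the first step. Foxc2 signal was 3.48, 3.35 and 3.45 in GFRα1+ cells, 0.56, 0.25 and 0.20 in NGN3+ and -2.69, -3.25 and -3.07 in KIT+ cells. The 3 fractions did not overlap, and each array of a fraction lay far from every array of the next. Foxc2 fell by 3.09 ± 0.16 (SE, n = 3 arrays each; limma, adjusted p = 2.54e-06), or 8.54-fold, to NGN3+ cells. From there it fell by 3.34 ± 0.16 (adjusted p = 1.42e-05), or 10.1-fold, to KIT+ cells, so that the ends differed 86.2-fold (-6.43 ± 0.16, adjusted p = 2.06e-07). With slide as a block the first step was -3.12 (adjusted p = 0.000106).

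Foxc2 lies on chromosome 8 between Foxf1 and Foxl1, both known from the mesenchyme of lung and gut. In the mm9 build of the array files their probes are at chr8:123610681-123610740 (Foxf1), chr8:123642693-123642752 (Foxc2) and chr8:123654402-123654461 (Foxl1), with gaps of 32.0 and 11.7 kb. Foxf1 signal was -0.06, 0.13 and 0.11 in GFRα1+ cells, 0.51, 0.31 and -0.28 in NGN3+ and -3.09, -3.84 and -3.53 in KIT+ cells. The arrays of the first 2 fractions overlapped and all KIT+ arrays were lower. The difference between NGN3+ and GFRα1+ cells was 0.12, with a 95% interval from -0.42 to 0.67 (adjusted p = 0.684), and Foxf1 then fell by 3.67 ± 0.24 (12.7-fold, adjusted p = 2.64e-05).

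Foxl1 signal was -1.46, -1.67 and -1.27 in GFRα1+ cells, -3.65, -2.14 and -4.71 in NGN3+ and -6.07, -5.85 and -6.35 in KIT+ cells, where no array was well above background. The NGN3+ arrays were spread over more than 2 units, yet lay between the other fractions. Foxl1 fell by 2.04 ± 0.53 at the first step (adjusted p = 0.0115), with -2.23 (adjusted p = 0.0566) when slide was a block. KIT+ cells gave only a bound, at least 2.86-fold below NGN3+ cells (adjusted p = 0.0059) and at least 11.7-fold below GFRα1+ cells (adjusted p = 8.82e-05). A bound sets the brighter group's mean against the lowest signal among probes well above background on each array of the dimmer group. By the methods' t-test Foxl1 did not pass at either step (adjusted p = 0.0968 and 0.0760).

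The neighbourhood of Foxc2 was examined after these values were seen. Within 100 kb on each side the array holds 24 probes under 11 gene names. Of these, 7 were tested between KIT+ and GFRα1+ cells, and all 7 were lower in KIT+ cells, as were 39.2% of all genes tested. Besides the 3 forkhead genes they were Mthfsd (-1.39 ± 0.11, adjusted p = 7.13e-06), the predicted gene Gm3796 (-3.25 ± 0.26, adjusted p = 8.92e-06), the transcript ENSMUST00000098351 (-3.54 ± 0.17, adjusted p = 7.9e-07) and a long intergenic transcript not above background in KIT+ cells. At the first step Mthfsd also fell (-1.11 ± 0.11, adjusted p = 5.19e-05), while Gm3796 differed by 0.30 (adjusted p = 0.344) and ENSMUST00000098351 by -0.08 (adjusted p = 0.718). These Mthfsd values are of its brightest probe, with means of 0.57, -0.53 and -0.82 in GFRα1+, NGN3+ and KIT+ cells. A second Mthfsd probe fell less, with means of -1.06, -1.53 and -1.54. Gm3796 and ENSMUST00000098351 had their probes on the Foxf1 side of Foxc2, at -53.2 and -30.7 kb from it, and among sorted cells, as for Foxf1, the comparisons they passed were those with KIT+ cells. The Foxf1 probe is at -32.0 kb, close to that of ENSMUST00000098351, and the Gm3796 probe lies among those of the long intergenic transcripts. Whether these names stand for separate transcripts was not tested, so the 7 cannot be counted as 7 independent genes.

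**Figure D3:**
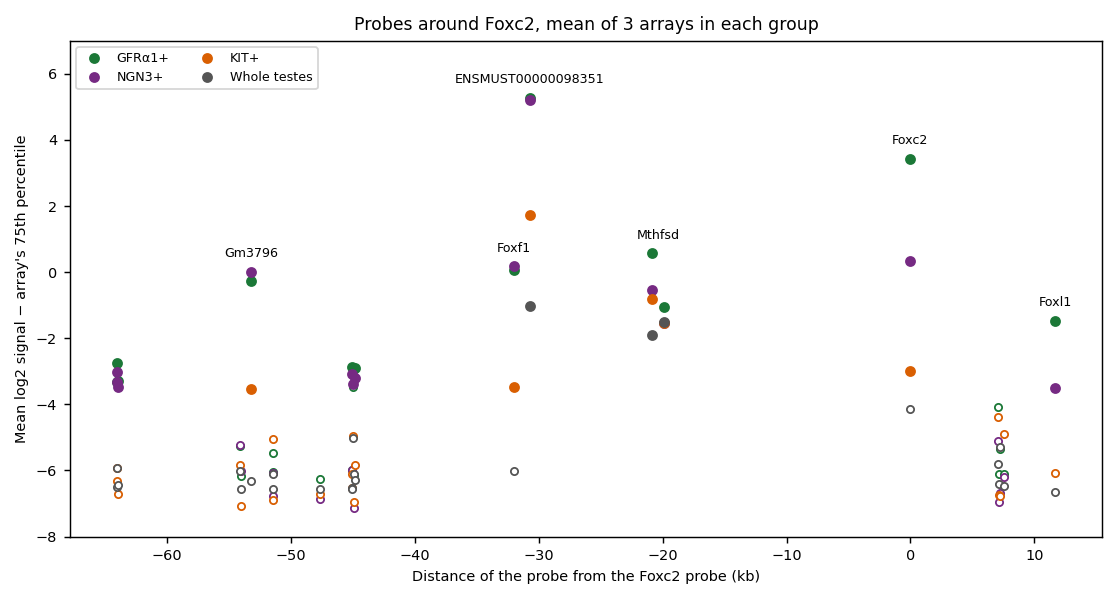
Mean log2 signal of 3 arrays in each group for the 24 probes within 100 kb of the Foxc2 probe, against the distance in kb. Open points were not well above background on all 3 arrays. Foxc2 is at 3.43 in GFRα1+, 0.33 in NGN3+ and -3.003 in KIT+ cells, and Foxf1 at 0.06, 0.18 and -3.49.

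Other neighbours did not share a pattern. On chromosome 13 Foxq1 was detected, while Foxf2, 70.9 kb away, was not above background on any array and Foxc1, a further 179 kb away, only on 2 whole-testes arrays. On chromosome 4 Foxd2 and Foxe3 lie 18.8 kb apart and are described below.

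Foxa1 and Foxa2, pioneer factors that open chromatin in liver, lung and pancreas, moved in opposite directions. Foxa1 signal was -2.15, -2.32 and -2.01 in GFRα1+ cells, -1.31, -1.28 and -1.15 in NGN3+ and -0.64, -0.62 and -0.83 in KIT+ cells. The 9 arrays fell into 3 separate groups in that order. Foxa1 rose by 0.91 ± 0.12 to NGN3+ cells (1.88-fold, adjusted p = 0.000309; 0.76 and 0.00712 with slide as a block) and by 0.55 ± 0.12 to KIT+ cells (1.46-fold, adjusted p = 0.00726).

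Foxa2 signal was 0.24, 0.14 and -0.08 in GFRα1+ cells, -0.37, -0.89 and -1.12 in NGN3+ and -4.19, -4.44 and -4.46 in KIT+ cells. The KIT+ arrays, 2 of them well above background, lay more than 3 units below all others. Foxa2 fell by 0.89 ± 0.19 to NGN3+ cells (adjusted p = 0.00477) and by 3.57 ± 0.19 to KIT+ cells (11.9-fold, adjusted p = 1.73e-05). With slide as a block the first step was -0.71 (adjusted p = 0.072). A second Foxa2 probe gave -0.77 at the first step, and it was not well above background on any KIT+ array. Foxa3, the remaining liver factor of the group, was well above background on 1 array of each sorted fraction and was not tested.

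The promoters of Foxa1 and Foxa2 are printed because these paralogs differed in direction, and that of Foxn4 because it had the largest rise among the members between NGN3+ and KIT+ cells. Each is the 250 bases before the RefSeq transcription start in GRCm38.p6, read 5′ to 3′ on the minus strand, at chr12:57546112-57546361 for Foxa1, chr2:148046970-148047219 for the farthest upstream of 3 Foxa2 starts, and chr5:114273762-114274011 for Foxn4. Capitals mark matches on either strand to the forkhead motif TGTTTAC, the CCAAT box CCAAT, the GC box GGGCGG and the TATA box TATAAA.
Foxa1: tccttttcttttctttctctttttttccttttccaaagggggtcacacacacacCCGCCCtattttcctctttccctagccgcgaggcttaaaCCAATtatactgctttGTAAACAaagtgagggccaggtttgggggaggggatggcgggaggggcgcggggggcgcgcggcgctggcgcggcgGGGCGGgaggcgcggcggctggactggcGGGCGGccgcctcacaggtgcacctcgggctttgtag
Foxa2: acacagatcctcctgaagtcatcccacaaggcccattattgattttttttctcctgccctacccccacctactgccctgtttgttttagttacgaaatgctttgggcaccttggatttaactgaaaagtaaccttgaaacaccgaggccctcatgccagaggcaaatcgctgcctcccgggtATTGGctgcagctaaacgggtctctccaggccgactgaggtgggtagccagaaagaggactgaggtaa
Foxn4: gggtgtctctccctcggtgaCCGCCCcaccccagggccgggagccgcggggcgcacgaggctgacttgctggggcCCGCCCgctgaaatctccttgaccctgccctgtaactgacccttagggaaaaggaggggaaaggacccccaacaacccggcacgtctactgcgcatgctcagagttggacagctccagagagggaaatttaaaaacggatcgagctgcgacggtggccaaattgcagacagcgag

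Promoters were found for 27 of the 41 members, with 32 start sites. The forkhead motif was in 1 of these 32 windows (3.12%), that of Foxa1, and in 3.17% of 32851 promoters of the same length. The CCAAT box was in 13 (40.6%, against 33.8% of all), the TATA box in 3 (9.38% against 12.4%) and the GC box in 22 (68.8% against 32.7%). Such matches describe the letters of these windows only.

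Foxd1, Foxd2 and Foxd3 are known from kidney stroma, the embryo's mesoderm and the neural crest with pluripotent cells. Foxd3 signal was -2.18, -2.78 and -2.65 in GFRα1+ cells and -3.77, -5.18 and -4.16 in NGN3+ cells, where 2 arrays were well above background, and -7.24, -6.72 and -5.68 in KIT+ cells, where none was. Every GFRα1+ array was above every other array. Foxd3 fell by 1.84 ± 0.45 to NGN3+ cells (adjusted p = 0.00877, and 0.0768 with slide as a block), and KIT+ cells were at least 5.59-fold below GFRα1+ cells (adjusted p = 7.78e-05).

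Foxd2 signal was -1.53, -1.97 and -1.55 in GFRα1+ cells, -3.19, -3.02 and -2.81 in NGN3+ and -2.10, -2.02 and -1.89 in KIT+ cells. The NGN3+ arrays were the lowest 3, and the other fractions overlapped. Foxd2 fell by 1.32 ± 0.15 to NGN3+ cells (adjusted p = 0.00017; -1.46 with slide as a block) and rose by 1.003 ± 0.15 to KIT+ cells (adjusted p = 0.00136).

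Foxd1 signal was -4.48, -3.93 and -4.78 in GFRα1+ cells, with 1 array well above background, -3.77, -4.20 and -3.59 in NGN3+ cells, with all 3, and -6.78, -6.34 and -6.75 in KIT+ cells, with none. The first 2 fractions overlapped. Their difference was 0.54 (adjusted p = 0.0893), and with slide as a block it was 0.93 (adjusted p = 0.0455). KIT+ cells were at least 2.24-fold below NGN3+ cells (adjusted p = 9.09e-05). Foxd4 was well above background on the 3 NGN3+ arrays and on no GFRα1+ array, and did not pass at either step (0.32, adjusted p = 0.389, and -0.15, adjusted p = 0.753). After another background correction the first step was -0.35 (adjusted p = 0.0267).

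Foxe3, a lens factor, was -3.89, -3.74 and -2.43 in GFRα1+ cells, -3.94, -3.61 and -4.21 in NGN3+ and -3.77, -4.15 and -4.19 in KIT+ cells. It did not pass in any comparison of sorted cells (-0.57 at the first step, adjusted p = 0.211). The GFRα1+ array at -2.43 is the one on slide 2, and with slide as a block Foxe3 was lower in NGN3+ cells by -1.49 (adjusted p = 0.00344) and in KIT+ cells by -1.61 (adjusted p = 0.0014). After another background correction both differences also passed (-0.71, adjusted p = 0.00353, and -0.62, adjusted p = 0.00582).

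Foxi3, a factor of hair and tooth formation, was -1.77, -2.13 and -2.34 in GFRα1+ cells, -3.38, -3.67 and -3.80 in NGN3+ and -4.46, -5.58 and -4.21 in KIT+ cells, with 2 KIT+ arrays well above background. The 3 fractions were apart. Foxi3 fell by 1.54 ± 0.33 to NGN3+ cells (adjusted p = 0.00464; -1.27 and 0.0668 with slide as a block) and by 1.13 ± 0.33 to KIT+ cells (adjusted p = 0.0288). The second step did not pass without NGN3+ replicate 1 (adjusted p = 0.0984) or 2 (adjusted p = 0.0714).

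Foxq1, known from hair and gut, was highest among the sorted fractions in NGN3+ cells. Foxq1 signal was -1.74, -1.52 and -1.68 in GFRα1+ cells, -1.12, -1.25 and -1.34 in NGN3+ and -2.44, -2.78 and -2.73 in KIT+ cells. The 3 fractions did not overlap. Foxq1 rose by 0.41 ± 0.13 (adjusted p = 0.0235) and then fell by 1.41 ± 0.13 (adjusted p = 9.62e-05). The rise did not pass with slide as a block (0.45, adjusted p = 0.0917), nor without GFRα1+ replicate 1 or 3 or NGN3+ replicate 1 or 2 (adjusted p from 0.0518 to 0.0762), and was 0.04 after another background correction (adjusted p = 0.756).

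Foxr1, a little-studied member known from oocytes and testis, was 1.08, 1.26 and 0.86 in GFRα1+ cells, 1.42, 1.04 and 0.79 in NGN3+ and -0.22, -0.16 and -0.13 in KIT+ cells. The first 2 fractions overlapped and every KIT+ array was lower. Between them the difference was 0.02, with a 95% interval from -0.38 to 0.41, and Foxr1 then fell by 1.25 ± 0.17 (2.39-fold, adjusted p = 0.000759).

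Foxh1 carries the nuclear signal of Nodal and activin by binding Smad proteins. Foxh1 signal was -3.35, -3.33 and -3.16 in GFRα1+ cells, -3.12, -2.79 and -2.58 in NGN3+ and -2.72, -3.14 and -3.08 in KIT+ cells. The NGN3+ arrays lay just above the GFRα1+ arrays and overlapped the KIT+ arrays. The difference of 0.45 ± 0.17 at the first step passed narrowly (adjusted p = 0.0468). It did not pass with slide as a block (0.33, adjusted p = 0.305) or when any 1 of GFRα1+ replicates 1 and 2 and NGN3+ replicates 2 and 3 was left out (adjusted p from 0.110 to 0.153), and it was -0.083 after another background correction (adjusted p = 0.474).

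Of 18 genes listed for Nodal and activin signalling, 16 were tested at the first step, where 2 rose and 7 fell (median -0.28, against -0.19 over all genes). Of all genes tested 20.1% rose and 36.1% fell, so the list's counts lay near the background. With slide as a block none rose and 3 fell. The inhibitor Smad7 fell by 1.59 ± 0.17 (adjusted p = 0.000108), the type I receptor Acvr1b by 0.96 ± 0.15 (adjusted p = 0.000827) and the signal carrier Smad2 by 0.57 ± 0.12 (adjusted p = 0.00353). At the second step 3 of 17 rose and 5 fell, where 17.5% of all genes rose and 16.9% fell. The corepressor Tgif1 fell by 2.80 ± 0.15 (adjusted p = 1.73e-05) and Smad3 by 1.55 ± 0.15 (adjusted p = 0.000136), while Drap1, which binds Foxh1, rose by 0.68 ± 0.11 (adjusted p = 0.00155) and the Smad corepressor Skil by 0.96 ± 0.16 (adjusted p = 0.00224).

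Most of the Foxp, Foxk, Foxj2, Foxj3 and Foxn2 to Foxn4 genes, though not all, are expressed in many tissues, and most had clear signal on all sorted arrays. Foxp1, a repressor known from B cells, heart and neurons, was 5.05, 5.05 and 5.10 in GFRα1+ cells, 4.75, 4.52 and 4.45 in NGN3+ and 4.04, 4.36 and 3.98 in KIT+ cells by its brightest probe. The 3 fractions were apart in this order. Foxp1 fell by 0.50 ± 0.13 (adjusted p = 0.0119; -0.53 and 0.0607 with slide as a block), by 0.45 ± 0.13 (adjusted p = 0.0281) and between the ends by 0.94 ± 0.13 (adjusted p = 0.000267). The second step did not pass without NGN3+ replicate 1 or 2 or KIT+ replicate 1 or 3 (adjusted p from 0.0660 to 0.108).

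Foxp1 had 3 probes, all in coding sequence. They are printed because they gave unequal changes, with the mm9 position on the minus strand of chromosome 6 and no base singled out.
Foxp1 at chr6:99112925-99112984, near the start of the protein: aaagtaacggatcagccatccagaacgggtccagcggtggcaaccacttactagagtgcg
Foxp1 at chr6:98885382-98889719, across an intron: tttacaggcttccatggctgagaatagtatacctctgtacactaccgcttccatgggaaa
Foxp1 at chr6:98880084-98880143, the brightest: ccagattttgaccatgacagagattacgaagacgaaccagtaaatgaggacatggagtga
Between KIT+ and GFRα1+ cells the brightest probe changed by -0.94, the probe across an intron by -0.61 and the probe near the start by -2.43. The last was -0.04, 0.27 and 0.47 in GFRα1+ cells, -0.10, -0.50 and -0.43 in NGN3+ and -2.12, -2.14 and -2.31 in KIT+ cells. Its difference from the brightest probe on the same array changed by -0.08 at the first step (exact permutation p = 0.5) and by -1.399 at the second. There the 3 KIT+ arrays did not overlap the 3 NGN3+ arrays, and the exact two-sided permutation p of 0.1 is the smallest that 3 against 3 arrays allow. Relative to the brightest probe, the probe across an intron changed by 0.27 at the first step and by 0.06 at the second (exact permutation p = 0.1 and 0.2). These comparisons of probes were chosen after their values were seen. Whether the unequal change lies in the transcripts or in the probes' response was not tested.

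Foxp4, known from lung and gut, was 1.38, 1.74 and 1.31 in GFRα1+ cells, 1.62, 1.34 and 1.21 in NGN3+ and 0.57, 0.76 and 0.36 in KIT+ cells. The first 2 fractions overlapped and the KIT+ arrays were lower. Foxp4 differed by -0.08 (adjusted p = 0.693) and then fell by 0.83 ± 0.17 (adjusted p = 0.0054), and a second probe gave 0.10 and -0.89. Foxp2, a factor of speech circuits, and Foxp3, the factor of regulatory T cells, were not above background on any array. Among 14 tested partners of Foxp proteins, none rose and 8 fell at the first step (median -0.44 against -0.19 over all genes, of which 36.1% fell), and 6 fell with slide as a block. These included Nfatc2 (-1.46 ± 0.16, adjusted p = 0.000102), the chromatin remodeller Chd4 (-1.04 ± 0.11, adjusted p = 0.000111) and the corepressors Ctbp2 (-0.77 ± 0.11, adjusted p = 0.000474) and Ctbp1 (-0.61 ± 0.11, adjusted p = 0.00164). At the second step 2 rose, the deacetylase Hdac1 (0.61 ± 0.10, adjusted p = 0.00219) and Mta1 (0.62 ± 0.11, adjusted p = 0.00317), and 3 fell, with the largest falls in Nfatc1 (-2.14 ± 0.23, adjusted p = 0.000207) and Runx1 (-1.91 ± 0.15, adjusted p = 6.33e-05). Of all genes tested there 17.5% rose and 16.9% fell.

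Foxk1 and Foxk2, repressors known for restraining autophagy and for recruiting Sin3, differed at the second step. Foxk1 signal was 0.82, 0.53 and 0.89 in GFRα1+ cells, 0.07, -0.05 and -0.17 in NGN3+ and -1.53, -1.52 and -1.33 in KIT+ cells. The 3 fractions were apart. Foxk1 fell by 0.80 ± 0.13 (adjusted p = 0.00105; -0.94 with slide as a block) and by 1.41 ± 0.13 (adjusted p = 0.000105), so that the ends differed 4.61-fold (adjusted p = 1.81e-06).

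Foxk2 signal was 0.22, 0.09 and -0.08 in GFRα1+ cells, -0.51, -0.63 and -0.56 in NGN3+ and -0.47, -0.52 and -0.58 in KIT+ cells. The GFRα1+ arrays were highest and the other fractions overlapped. Foxk2 fell by 0.64 ± 0.11 (adjusted p = 0.00127; -0.48 with slide as a block) and then differed by 0.04, with a 95% interval from -0.20 to 0.29. Of 15 tested partners of Foxk proteins, 1 rose and 8 fell at the first step (median -0.30 against -0.19 over all genes, of which 20.1% rose and 36.1% fell). At the second 3 rose and 4 fell (median -0.18 against 0.05, with 17.5% and 16.9% of all genes), which was not far from the background. With slide as a block the first count was 1 and 3, and under the scaling on brighter probes it was also 1 and 3. Asxl1 of the BAP1 complex fell by 1.401 ± 0.14 (adjusted p = 6.26e-05) and Dvl3, a Wnt signal carrier, by 1.33 ± 0.21 (adjusted p = 0.000823). At the second step the sugar transferase Ogt fell by 1.39 ± 0.15 (adjusted p = 0.000227) and Sin3b rose by 0.87 ± 0.12 (adjusted p = 0.000781).

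Foxj3 signal was 4.99, 4.86 and 4.91 in GFRα1+ cells, 4.34, 4.16 and 4.12 in NGN3+ and 4.18, 4.39 and 4.37 in KIT+ cells. The GFRα1+ arrays were highest and the others overlapped. Foxj3 fell by 0.72 ± 0.11 (adjusted p = 0.000721; -0.70 with slide as a block) and then differed by 0.10 (adjusted p = 0.507). Its relative Foxj2 was -4.76, -3.91 and -3.66 in GFRα1+ cells, with 2 arrays well above background, -3.48, -3.69 and -2.91 in NGN3+ and -2.89, -3.04 and -2.82 in KIT+ cells. The first step was 0.75 (adjusted p = 0.0558), and with slide as a block it was 0.30. It passed without GFRα1+ replicate 3 (0.98, adjusted p = 0.0228), which leaves no GFRα1+ array on slide 2. It also passed under the scaling on brighter probes (0.92, adjusted p = 0.0333). Between the ends Foxj2 was higher in KIT+ cells by 1.19 (adjusted p = 0.00649), where with slide as a block the difference was 0.74 (adjusted p = 0.127) and after another background correction it was 0.081 (adjusted p = 0.504).

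Foxn4, a factor of retina and spinal cord, had the largest rise of the members. Foxn4 signal was 0.30, 0.38 and 0.58 in GFRα1+ cells, 0.27, 0.25 and 0.80 in NGN3+ and 2.89, 3.13 and 2.64 in KIT+ cells. The first 2 fractions overlapped and every KIT+ array was more than 1 unit above them. The first step was 0.02, with a 95% interval from -0.41 to 0.45, and Foxn4 then rose by 2.45 ± 0.19 (5.45-fold, adjusted p = 5.02e-05).

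Foxn2 signal was -0.12, -0.25 and -0.06 in GFRα1+ cells, -0.25, -0.34 and -0.14 in NGN3+ and 0.26, 0.31 and 0.29 in KIT+ cells. Here too only the KIT+ arrays stood apart, with a rise of 0.53 ± 0.10 (1.45-fold, adjusted p = 0.00379). Between the ends Foxn2 differed by 0.43 (adjusted p = 0.0048), and with slide as a block by 0.35 (adjusted p = 0.0671). Foxn3, a checkpoint and repressor factor, was 1.29, 1.24 and 0.80 in GFRα1+ cells, 0.28, 0.27 and 0.35 in NGN3+ and 0.71, 0.97 and 0.88 in KIT+ cells. Its NGN3+ arrays were lowest. It fell by 0.81 ± 0.14 (adjusted p = 0.0018; -0.50 and 0.0283 with slide as a block) and rose by 0.55 ± 0.14 (adjusted p = 0.0178). The rise did not pass without NGN3+ replicate 1 or 2 or KIT+ replicate 2 or 3 (adjusted p from 0.0528 to 0.0633). A dim second probe, of a predicted transcript, gave 0.52 (adjusted p = 0.208) and -0.21 (adjusted p = 0.67), and the mean of both probes passed at neither step. Foxn1, the factor missing in nude mice, was not above background on any array.

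Foxm1 drives the genes of the G2 phase and mitosis, together with the MuvB complex and B-Myb. Foxm1 signal was 0.89, 0.999 and 1.39 in GFRα1+ cells, 1.11, 1.45 and 1.70 in NGN3+ and 2.12, 2.19 and 2.28 in KIT+ cells. The first 2 fractions overlapped and every KIT+ array was above them. The first step was 0.32, with a 95% interval from -0.09 to 0.73 (adjusted p = 0.154), and with slide as a block it was 0.03. It passed without NGN3+ replicate 1 (0.48, adjusted p = 0.0452). It also passed without GFRα1+ replicate 3 (0.47, adjusted p = 0.0490), which leaves no GFRα1+ array on slide 2. Foxm1 then rose by 0.78 ± 0.18 (1.72-fold, adjusted p = 0.00995), and a second probe gave -0.01 (adjusted p = 0.934) and 0.62 (adjusted p = 0.0056). Between the ends Foxm1 was 2.15-fold higher in KIT+ cells (1.104, adjusted p = 0.000681; 0.81 with slide as a block).

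Of 37 listed target genes of Foxm1 in mitosis, 34 were tested. At the first step 1 rose and 29 fell, with a median of -0.55 against -0.19 over all genes, of which 20.1% rose and 36.1% fell. At this step the 24 spermatid markers all rose, from 0.656 to 19.98% of whole testes in sum, and their part in the list's values was not tested. The listed genes with the smallest p were the cyclin Ccna2 (-1.07 ± 0.12, adjusted p = 0.000137), the phosphatase Cdc25b (-0.82 ± 0.10, adjusted p = 0.000258), Cenpa, the histone of the centromere (-1.002 ± 0.14, adjusted p = 0.000506), and the spindle protein Nusap1 (-1.02 ± 0.15, adjusted p = 0.000526). The gene that rose was the kinesin Kif2c (1.302 ± 0.19, adjusted p = 0.00066). The number that fell was 19 with slide as a block, 15 within slide 2, 20 under the scaling on brighter probes and 19 after quantile normalization.

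At the second step 26 of the 34 rose and none fell, with a median of 0.60 against 0.05 over all genes, of which 17.5% rose. Of these the spindle protein Tpx2 rose by 1.32 ± 0.15 (adjusted p = 0.000259), the kinesin Kif4 by 1.38 ± 0.16 (adjusted p = 0.000333), Prc1 by 1.3998 ± 0.16 (adjusted p = 0.000347) and the mitotic kinase Plk1 by 1.37 ± 0.16 (adjusted p = 0.000357). Between the ends 8 were higher and 1 lower in KIT+ cells, with a median of 0.11. Of all genes 26.5% were higher and 39.2% lower there, with a median of -0.15. Without NGN3+ replicate 2 the number that fell at the first step was 21. Of 15 tested genes of the MuvB complex, B-Myb and the kinases of Foxm1, 1 rose and 8 fell at the first step (median -0.41), with Lin54 (-1.23 ± 0.10, adjusted p = 1.63e-05), Lin52 (-1.03 ± 0.11, adjusted p = 0.000103) and Lin9 (-0.71 ± 0.10, adjusted p = 0.000374), all DREAM or MuvB subunits, among them. At the second step 5 rose and 2 fell (median 0.33). Of all genes 20.1% rose and 36.1% fell at the first step (median -0.19), and 17.5% rose and 16.9% fell at the second (median 0.05).

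**Figure D4:**
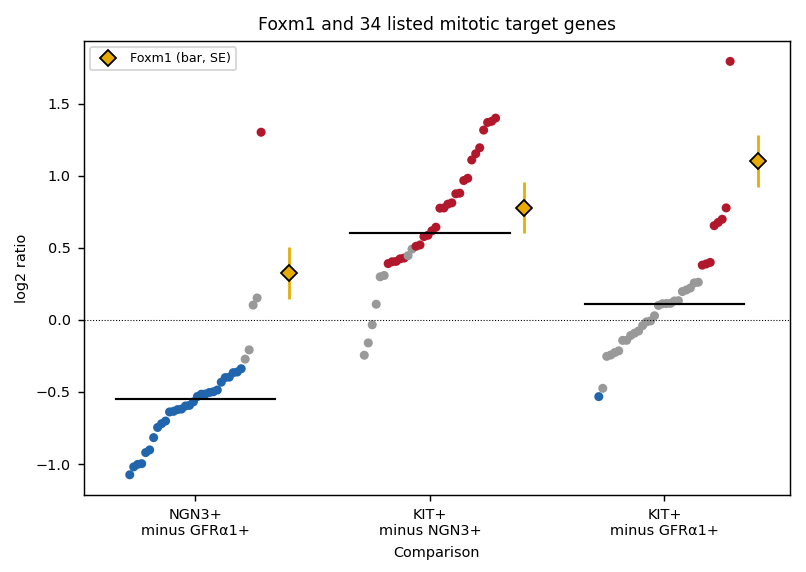
Log2 ratio of Foxm1 (diamond, bar 1 SE) and of its 34 tested target genes (points) in each comparison of sorted cells, with the list's median as a line. Red and blue points passed as higher or lower. The median is -0.55, 0.60 and 0.11, and Foxm1 is at 0.32, 0.78 and 1.104.

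Foxj1 is the master factor of motile cilia, and genes of the sperm tail overlap with its targets. Foxj1 signal was -1.41, -1.29 and -2.80 in GFRα1+ cells, -1.48, -0.48 and -0.45 in NGN3+ cells, -0.15, -0.87 and -0.18 in KIT+ cells and 3.17, 3.73 and 3.64 in whole testes. The sorted arrays all lay more than 3 units below whole testes, and GFRα1+ and NGN3+ arrays overlapped. The first step was 1.03 (adjusted p = 0.0775), and with slide as a block 1.995 (adjusted p = 0.00989), since the GFRα1+ array at -2.80 is the one on slide 2. The step also passed without NGN3+ replicate 1 (1.37, adjusted p = 0.0375). Between the ends Foxj1 was higher in KIT+ cells by 1.43 ± 0.44 (adjusted p = 0.0197), but not without KIT+ replicate 1 (adjusted p = 0.0628) or 3 (adjusted p = 0.0613). GFRα1+ cells were 40.7-fold below whole testes (-5.35 ± 0.41, adjusted p = 2.24e-07), at 2.46% of the whole-testes signal, and NGN3+ and KIT+ cells were at 5.02 and 6.63%.

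At the first step 20.1% of all genes rose and 36.1% fell, with a median of -0.19. Of 28 tested genes of motile cilia listed with Foxj1, 18 rose and 2 fell there, with a median of 1.23. Among them were the tektins Tekt4 (3.997 ± 0.25, adjusted p = 4.71e-06) and Tekt1 (3.77 ± 0.26, adjusted p = 7.97e-06) and the cilium gene Cfap126 (3.48 ± 0.30, adjusted p = 2.94e-05). At the second step, where 17.5% of all genes rose and 16.9% fell, 2 of the listed genes rose and 4 fell. In sum the 31 listed cilium genes stood at 21.0, 23.5 and 34.9% of whole testes in GFRα1+, NGN3+ and KIT+ cells. Round and elongating spermatids, which make the sperm tail, express many of these genes, and their markers also rose at the first step. The 24 spermatid markers all passed as higher in NGN3+ cells at the first step, with a median of 5.39. Their summed log2 level was 5.41 to 6.38 in GFRα1+ cells, 10.6 to 11.0 in NGN3+, 10.9 to 11.3 in KIT+ cells and 13.0 to 13.3 in whole testes, or 0.656, 19.98 and 24.3% of whole testes in the sorted fractions. Only Acrv1 was not above background on any GFRα1+ array, and all were detected elsewhere. Meiotic markers stood at 13.4, 25.0 and 30.2% of whole testes. The part of these cells in the values of Foxj1 and the cilium genes was not tested.

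Against whole testes GFRα1+ cells were higher in 16 members and lower in 9, of 27 tested. That was 92.6%, against 87.3% of all 24186 genes tested (49.9% higher and 37.5% lower), with medians of 2.01 and 0.39. Under the scaling on brighter probes the typical gene moved by -0.41, and the members went to 16 and 10. Where only genes well above background in both groups were kept, 8 members were higher and 7 lower.

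Members of the first kind included several with little or no detectable signal in whole testes. Foxc2 in whole testes was -3.86, -4.25 and -4.35, against a mean of 3.43 in GFRα1+ cells (adjusted p = 1.4e-10). Only 1 of these whole-testes arrays was well above background, so no fold is given. Foxa2 (-6.22, -5.15 and -5.29), Foxf1 (-5.15, -6.33 and -6.57), Foxa1 (-5.55, -6.38 and -6.46), Foxl1 (-6.85, -6.43 and -6.68) and Foxd3 (-6.71, -6.36 and -6.60) were not well above background on any whole-testes array. They were at least 26.6-fold (Foxa2), 25.9-fold (Foxf1), 9.001-fold (Foxl1), 5.56-fold (Foxa1) and 4.29-fold (Foxd3) higher in GFRα1+ cells. ENSMUST00000098351, whose probe lies close to that of Foxf1, was well above background on all 3 whole-testes arrays, at a mean of -1.03. It was higher in GFRα1+ cells by 6.31 ± 0.18, and whether its probe reports Foxf1 was not tested. The summed signals of the marker lists for Sertoli, Leydig, peritubular myoid and endothelial cells and for macrophages were each highest in whole testes. Sertoli cell markers, for example, had a summed log2 level of 8.50 to 8.73 there, with 20 of 22 well above background on every array, and 5.94 to 6.14 in GFRα1+ cells, with 13 of 22. The part of these cell types in the differences was not tested.

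Foxr1 was 20.7-fold higher in GFRα1+ cells than in whole testes (4.37 ± 0.18, adjusted p = 1.2e-09), Foxj3 8.99-fold (adjusted p = 7.53e-10), Foxn2 7.50-fold (adjusted p = 7.64e-10), Foxk1 7.12-fold (adjusted p = 2.99e-09) and Foxn4 5.82-fold (adjusted p = 1.08e-07). Foxd2, Foxi3, Foxn3 and Foxp1 were also higher, by 1.65 to 2.10 units. Foxp4 did not differ by its brightest probe (0.04, 95% interval from -0.33 to 0.41), where the scaling on brighter probes gave -0.37 (adjusted p = 0.0378), while a second probe gave 1.07 and passed.

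Of the 9 members lower in GFRα1+ cells, Foxj1 had the largest difference. Foxm1 was 3.44, 3.70 and 3.82 in whole testes, 5.90-fold above GFRα1+ cells (-2.56 ± 0.18, adjusted p = 8.22e-08), and rose from 16.9 to 21.2 and 36.4% of whole testes across the sorted fractions. Foxh1 was -0.81, -0.80 and -0.81 in whole testes, 5.56-fold above GFRα1+ cells (adjusted p = 3.11e-08), and the sorted fractions held 18.0, 24.6 and 22.1% of that signal. Foxs1, known from pericytes and sensory neurons, was -1.49, -1.23 and -1.11 in whole testes and between -3.13 and -2.53 on the sorted arrays, at 28.9, 33.2 and 33.2%. It did not pass in any comparison of sorted cells. For comparison, endothelial and pericyte markers stood at 74.9, 58.6 and 67.0% of whole testes. Of these 16 markers, 8 were detected on each GFRα1+ array and 5 (Cspg4, Emcn, Esam, Rgs5 and Tie1) on none. Against whole testes 2 of the 16 were higher in GFRα1+ cells, 11 were lower and 3 did not pass. Sertoli markers summed to 16.6, 15.0 and 15.6%. Yet at the first step, where 20.1% of all genes rose (median -0.19), 15 of 19 tested Sertoli markers rose (median 1.15). Peritubular myoid markers stood at 2.71, 13.2 and 10.5%, with 7 of 8 tested higher at that step (median 2.49), and macrophage markers at 1.36, 9.60 and 11.7%. What these cells added to the sorted fractions' values was not tested.

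Foxq1 was 1.77-fold and Foxk2 1.57-fold lower in GFRα1+ cells than in whole testes (adjusted p = 0.000148 and 0.000145). Foxj2 (-0.71, adjusted p = 0.0284), Foxl2 (-0.37, adjusted p = 0.0218) and Foxi1 (-1.27, adjusted p = 0.0499) passed less clearly, and the Foxi1 arrays of the groups overlapped. Foxi1 did not pass when any 1 of 5 arrays was left out, GFRα1+ replicates 1 and 2 and all 3 of whole testes (adjusted p from 0.0759 to 0.186). Foxj2 did not pass without GFRα1+ replicate 1 or whole-testes replicate 2 or 3 (adjusted p from 0.0538 to 0.115), and the same arrays decided Foxl2 (adjusted p from 0.0573 to 0.0819). With slide as a block Foxj2 (adjusted p = 0.0656) and Foxl2 (adjusted p = 0.162) did not pass, and Foxe3, which otherwise did not (-0.33, adjusted p = 0.365), was lower by -0.79 (adjusted p = 0.0208). It was lower by the same amount without GFRα1+ replicate 3 (adjusted p = 0.00275).

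**Figure D5:**
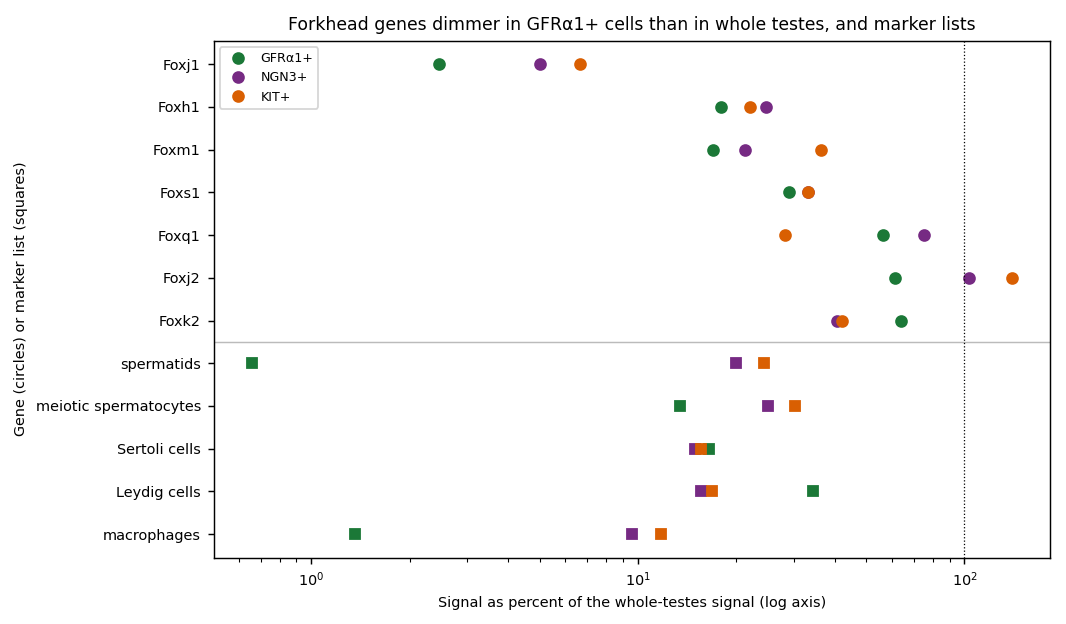
Signal in each sorted fraction as a percent of the whole-testes signal, on a log axis, for 7 of the 9 forkhead genes lower in GFRα1+ cells (circles; Foxi1 and Foxl2 are not drawn) and for the summed signal of marker lists (squares). Foxj1 lies at 2.46, 5.02 and 6.63%, and spermatid markers at 0.656, 19.98 and 24.3%.

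Foxl2, the factor of ovarian granulosa cells, had a bright probe on every array, between 4.58 and 5.18, and did not pass in any comparison of sorted cells (differences of 0.00, 0.03 and 0.04). A second Foxl2 probe was between -3.95 and -2.89 and passed in no comparison. The bright probe has 57 of its 60 bases aligned to the genome, with 81.7% G and C against 71.7% in the dim one. They are printed because they disagree on whether the gene is bright, with the 12 bases they share in capitals and the mm9 position on the plus strand of chromosome 9.
Foxl2 at chr9:98856894-98856950, bright: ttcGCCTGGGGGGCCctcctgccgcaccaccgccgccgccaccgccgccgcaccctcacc
Foxl2 at chr9:98856846-98856905, dim: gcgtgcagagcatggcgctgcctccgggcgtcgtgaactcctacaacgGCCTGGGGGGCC
Foxl2os, on the opposite strand next to Foxl2, was well above background on 2 NGN3+ and 2 KIT+ arrays and was not tested.

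In all, 13 members were not tested between sorted fractions. Foxb1 and Foxb2 (brain), Foxf2 (gut and palate mesenchyme), Foxi2, Foxn1, Foxp2, Foxp3 and Foxr2 were not well above background on any of the arrays, at signals from -7.46 to -4.42. Foxc1 was detected on 2 whole-testes arrays, Foxe1, a thyroid factor, on 1 KIT+ array, Foxa3 on 1 array of each sorted fraction, Foxi1 on 1 or 2 arrays of each sorted fraction and on all 3 of whole testes, and Foxl2os as given above.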

How the data were processed

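The arrays were read by the authors with Agilent Feature Extraction (version 10.7.3.1 in the submitters' notes, 10.7.1.1 in the headers of slide 2), and each deposited scanner file gives a background-corrected 1-colour intensity per spot. The authors labelled 25 ng of RNA per array and used GeneSpring. The deposited table of log2 values equals these intensities relative to each array's 75th percentile within 0.01 for at least 99.8% of probes. Depth is not defined for arrays, and 3 arrays a group limit the precision.

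Here log2 intensity minus each array's 75th percentile (318 to 675 intensity units) was used, without control spots and outlier spots (103 to 161 of 59305 per array). A gene's brightest probe over all arrays stood for it. Names came from RefSeq by accession (26413 probes), symbol (3859) or synonym (735), and 24674 kept the file's name. limma 3.58.1 in R 4.3.3 fitted the 9 sorted arrays together, and all 12 for whole testes. Both were tested on simulated data. NGN3+ and KIT+ come from 1 reporter line and GFRα1+ from another, so line and state cannot be told apart in that comparison, and NGN3+ samples alone are pools. Of the members, 1 enters the counts but is not reported here, and the others are named. Array values are given for those that passed between sorted cells, and up to 4 genes of each list by smallest p. Members and lists were chosen with earlier results of these data known. Sequences came from the scanner files and RefSeq tables (GRCm38.p6). Alternatives changed normalization, background correction, filter, probe, slide, pairing, test and arrays. The methods' test, a t-test with Benjamini-Hochberg adjustment, was one of them.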

Additional observations from a re-analysis of the deposited data

How the results depend on the processing

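Of 2133 values of tested members under the alternatives, 2005 kept their side of the threshold, 95 no longer passed, 30 newly passed and 3 reversed. The reversed ones were Foxh1 (-0.083) and Foxd4 (-0.35) between NGN3+ and GFRα1+ cells after normexp background correction, and Foxp4 between GFRα1+ cells and whole testes under the scaling on brighter probes (-0.37). The cause was not tested. Counts of members moved by over 1.5 times in 7 of 160 cases. In NGN3+ minus GFRα1+, the 4 higher members became 2 after quantile normalization, 2 by the methods' t-test and 7 under the scaling on brighter probes, and the 11 lower ones 7 with slide as a fixed block and 7 within slide 2. In GFRα1+ minus whole testes, the 16 higher became 8 where both groups had to be above background, since only 16 members were then tested. Leaving out 1 array at a time gave 2 to 5 higher and 11 to 11 lower in NGN3+ minus GFRα1+, 5 to 6 and 10 to 12 in KIT+ minus NGN3+, 5 to 7 and 13 to 15 in KIT+ minus GFRα1+, and 16 to 16 and 6 to 10 in GFRα1+ minus whole testes. The replicate numbers did not pair the samples (correlations of same-numbered deviations from -0.58 to 0.29), and the replicate block gave 4 higher and 11 lower, 6 and 11, 6 and 14, and 16 and 8 members in these comparisons. Signal over background limits Foxd1, Foxd3, Foxl1, Foxa1, Foxa2 and Foxf1 to bounds in the groups named above. A limma p-value rests on 3 samples a group, with a spread estimated over all arrays of the fit and shared between genes. For NGN3+ cells these samples are pools and not single mice. Slide 2 holds only 1 GFRα1+ array beside the other fractions.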
